A study of Canis lupus familiaris with 15 samples.

Results

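Collagens and the enzymes that fold, cut and cross-link them were examined in canine osteosarcoma cells. Members were chosen by gene symbol, with earlier results of these data known. The symbols were those of the collagen alpha chains, the prolyl 4-hydroxylase alpha subunits (P4HA), the prolyl 3-hydroxylases (P3H), the lysyl hydroxylases (PLOD) and the lysyl oxidase family (LOX). PCOLCE, PCOLCE2, BMP1, TLL1, SERPINH1, CRTAP, TGM2 and LEPREL1 were included by name. Of 7698 genes listed in at least 1 of 3 tables of differentially expressed genes, 42 were members, comprising 7 fibrillar collagens, 15 other collagens and 20 processing enzymes. The class of processing enzymes also holds chaperones and the procollagen enhancer proteins.

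RNA was sequenced from 15 libraries in 5 groups of 3: extravasated and parental D17 cells, extravasated and parental HMPOS cells, and parental POS cells. D17, HMPOS and POS are canine osteosarcoma cell lines, and HMPOS is a highly metastatic derivative of POS. Extravasated sub-lines were grown in culture from tumor cell clusters that had left the vessels of zebrafish embryos carrying green fluorescent vessels (Tg(fli1a:EGFP)), whereas parental cells had not been in a fish. Parental cells therefore differ from extravasated cells in passage through the fish, isolation and regrowth together, and these cannot be told apart. No other treatment is named in the labels for any group.

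The tables give 1 FPKM value (a fragment count normalized to transcript length and to the total mapped) for each group, pooled over its libraries. These pooled values show neither the depth nor the variation among libraries, so no SD is given. The authors' own test columns are in the tables but were not used, and no difference given here was tested anew against replicates. Every gene listed had passed the authors' test, so a gene missing from a table may be unchanged, variable or not expressed. Ratios run as extravasated over parental and as HMPOS over POS, and a fold above 2 is counted as a call. Which group is extravasated rests on the column names alone, with meta read as extravasated and norm as parental because POS, which has only parental libraries, is named norm. The direction is uncertain and the opposite reading remains open, because the sources used here differ on it and the deposited log2 ratio runs the other way, as second over first group. If the reading is wrong, every direction given for extravasated cells turns around, and HMPOS over POS, which uses the same norm group of HMPOS, may then not compare parental with parental cells. The 2 tables with parental HMPOS cells gave values for 907 shared genes that differed by at most 0.232%, so the same group stands in both.

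Collagen chains assemble in the endoplasmic reticulum, where hydroxylases modify prolines and lysines and chaperones hold the chains until their helix has formed. Outside the cell, proteinases such as BMP1 remove the carboxy-terminal propeptide with the help of PCOLCE, and lysyl oxidases then cross-link the fibrils. Osteoblasts and osteosarcoma cells are known for a matrix rich in type I collagen, with types III and V as minor fibril components.

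The rule covers 67 symbols in the lists used here, of which 25 were in no table. These include the fibrillar chains COL5A3, COL11A2, COL24A1 and COL27A1, the collagen chaperone SERPINH1 and the BMP1-related proteinase TLL1. LEPREL1 is an older name of P3H2, which is listed under the newer name. The other 18 unlisted symbols are 6 network-forming, 6 fibril-associated, 4 beaded-filament or anchoring and 2 transmembrane collagens. A total of 22 members were in 1 table, 14 in 2 tables and 6 in all 3.

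In D17, FPKM was higher in the extravasated sub-line for 3 of 4 fibrillar collagens, for all other collagens and for all processing enzymes listed, and COL3A1 was the exception, but relative to the median of all listed genes PLOD2 turned lower as well. Of 22 members among 4412 listed genes, 21 were higher and 1 was lower, where 54.2% of all listed genes were higher and 45.8% lower. With a fold above 2, 10 members were higher and 1 lower, which is 45.5% and 4.55% of them, against 18.3% and 8.50% of all listed genes. The median log2 ratio was 0.80 for members and 0.39 for all listed genes. With ratios centred on that median of 0.39, 20 of the 22 members remained above it, and 5 instead of 10 were higher by a fold above 2, with 1 lower, where 476 of all listed genes were then higher and 1016 lower in place of 808 and 375. Bulk RNA cannot tell fewer cells of a type from less RNA per cell.

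Among fibrillar collagens in D17, COL1A2, a chain of type I collagen, was at 1359.7 FPKM in extravasated cells against 493.4 FPKM in their parental line, for a log2 ratio of 1.46. Its partner chain COL1A1 was at 397.4 and 224.4 FPKM, with a log2 ratio of 0.82, below a fold of 2. The level of COL1A2 over that of COL1A1, both per length, was 3.42 in extravasated and 2.20 in parental cells. Both type I chains were thus higher, but by unequal amounts. COL11A1, a chain of the minor fibrillar type XI collagen, was at 222.5 and 88.8 FPKM (log2 ratio 1.33, or 0.94 centred). COL3A1, which forms type III collagen, was instead at 4.50 FPKM in extravasated cells against 13.0 FPKM in their parental line, for a log2 ratio of -1.53. The median log2 ratio of these 4 chains was 1.07.

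All 4 other collagens listed in D17 were higher in extravasated cells, where 54.2% of all listed genes were, also relative to their median. COL8A1, a network-forming chain, was at 3.44 FPKM in extravasated cells against 0.996 FPKM in their parental line (log2 ratio 1.79, or 1.15 with a pseudocount of 1 FPKM, a value added to both groups before the ratio). The fibril-associated chains COL21A1 and COL14A1 were at 3.59 and 2.88 FPKM in extravasated cells and at 1.27 and 1.19 FPKM in parental cells. COL14A1 passed a fold of 2 neither centred, at 0.88, nor with a pseudocount of 1 FPKM, at 0.82. These 3 chains were therefore low in both groups. COL6A1, a chain of the beaded filaments of type VI collagen, was more abundant, at 30.2 and 20.4 FPKM, with a log2 ratio of 0.57. Its value is less certain, since the tables give COL6A2 and COL18A1 the same coordinates.

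Of the 14 processing enzymes listed in D17, 14 were higher in extravasated cells and 5 of them (35.7%) passed a fold of 2, where 54.2% and 18.3% of all listed genes did. Relative to the median of all listed genes 13 were higher, and 2, TGM2 and PCOLCE, passed a fold of 2, which is 14.3% of the 14, where 476 of the 4412 listed genes did. TGM2, a transglutaminase that cross-links matrix proteins, was at 17.5 FPKM in extravasated cells against 0.577 FPKM in their parental line. Its log2 ratio of 4.92, or 3.55 with a pseudocount of 1 FPKM, ranked 5 from the top among 4404 listed genes with values above 0 in both groups, and would rank 5 from the bottom if the names were read the other way. PCOLCE (ENSCAFG00000014322), the enhancer of carboxy-propeptide removal, was at 143.7 FPKM in extravasated cells against 24.3 FPKM in their parental line (log2 ratio 2.57). Its relative PCOLCE2 was at 19.4 and 7.73 FPKM (log2 ratio 1.32).

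The lysyl oxidase family in D17 was listed with LOXL2, LOXL3 and LOXL4. All were higher in extravasated cells, where 54.2% of all listed genes were, also relative to their median. Without centring, LOXL4 and LOXL3 passed a fold of 2, where 18.3% of all listed genes were higher by as much. LOXL4 was at 7.01 FPKM in extravasated cells against 2.94 FPKM in their parental line (log2 ratio 1.25, or 0.87 centred), and LOXL3 was at 1.74 and 0.817 FPKM (log2 ratio 1.09). LOXL3 passed a fold of 2 neither centred, at 0.71, nor with a pseudocount of 1 FPKM, at 0.59. LOXL2 was the most abundant of them, at 84.0 and 54.9 FPKM, but its log2 ratio was 0.61. The level of LOXL2 over that of LOXL3, without a pseudocount, was 48.1 in extravasated and 67.2 in parental cells. Since LOXL3 was low in both groups, the difference between these quotients is uncertain.

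Of the 8 hydroxylases and chaperones listed in D17, which act inside the cell, all were higher in extravasated cells and none passed a fold of 2, where 18.3% of all listed genes were higher by as much. P4HA1, a catalytic subunit of prolyl 4-hydroxylase, was the most abundant, at 222.2 FPKM in extravasated cells against 153.9 FPKM in their parental line. The log2 ratios of these 8 genes ran from 0.38 for PLOD2 to 0.77 for CRTAP. P4HA2, at 28.9 and 19.8 FPKM, and PLOD1, at 47.6 and 29.2 FPKM, lay between them, as did P3H4, at 110.1 and 76.2 FPKM. P3H1 and PLOD3 make up the 8, with log2 ratios of 0.48 and 0.70. Relative to the median of all listed genes, PLOD2 had a log2 ratio of -0.0076 and the other 7 were above 0.

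**Figure D1:**
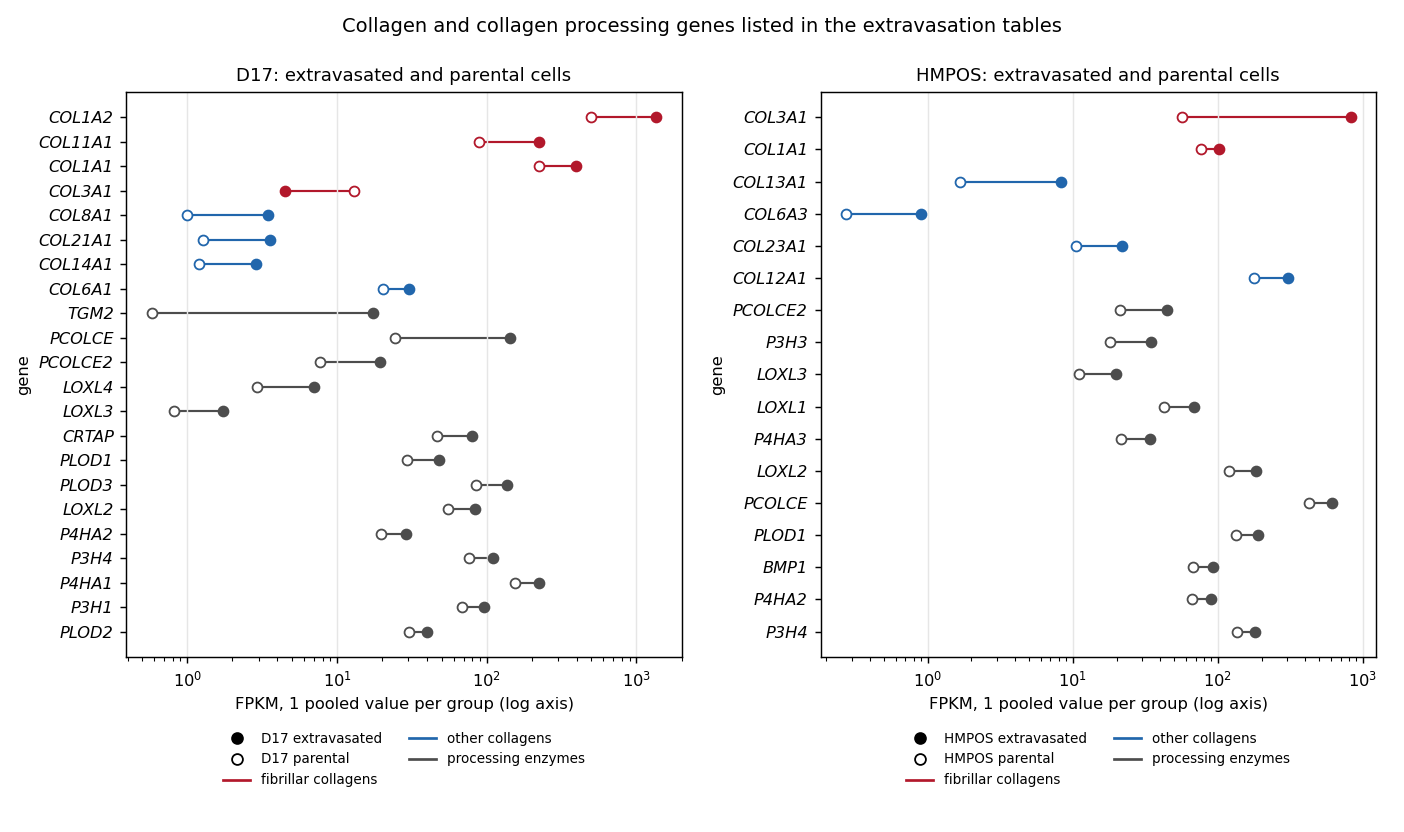
Pooled FPKM on a log axis for the 22 members listed in D17 (left) and the 17 listed in HMPOS (right), with filled points for extravasated cells, open points for parental cells and colors for the class of gene. The filled point lies to the right for all members but COL3A1 in D17 (4.50 against 13.0 FPKM); relative to the median over the whole table, 0.39 for D17 and 0.58 for HMPOS, PLOD2 in D17 and 6 genes in HMPOS turn lower.

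In HMPOS, COL3A1 had the highest log2 ratio among members, and all processing enzymes listed were higher in extravasated cells, of which 5 turned lower relative to the median of all listed genes. All 17 members among 1189 listed genes were higher and 0 were lower, where 67.0% of all listed genes were higher and 33.0% lower. With a fold above 2, 5 members were higher, or 29.4% of them, and 0 were lower, against 20.5% and 4.79% of all listed genes. The median log2 ratio of members, 0.68, was close to the 0.58 of all listed genes. Relative to that median, 11 members were higher and 6 lower, and 3 were higher by a fold above 2, where 73 of all listed genes were then higher and 361 lower in place of 244 and 57. Members in HMPOS thus had a median close to that of all listed genes. None was lower before centring and 0 were lower by a fold above 2 after it, and no difference from all listed genes was tested.

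COL3A1 (ENSCAFG00000014812) was at 821.7 FPKM in extravasated HMPOS cells against 56.7 FPKM in their parental line, for a log2 ratio of 3.86. That ratio ranked 3 from the top among 1186 listed genes with values above 0 in both groups, and the level in extravasated cells ranked 3 among all 1189, while the level in parental cells ranked 156. If the names were read the other way, the ratio would rank 3 from the bottom and these levels would trade places. The other fibrillar collagen listed, COL1A1, was at 101.9 and 76.0 FPKM (log2 ratio 0.42), and relative to the median of all listed genes its log2 ratio was -0.16. The level of COL3A1 over that of COL1A1 was 8.06 in extravasated and 0.746 in parental HMPOS cells. In D17 the same quotient was 0.0113 in extravasated and 0.0579 in parental cells, so COL1A1 was the more abundant of the pair in both D17 groups.

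All 4 other collagens listed in HMPOS were higher in extravasated cells, where 67.0% of all listed genes were, also relative to their median. COL13A1, a transmembrane collagen, was at 8.33 FPKM in extravasated cells against 1.68 FPKM in their parental line (log2 ratio 2.31). COL23A1, also a transmembrane collagen, was at 21.9 and 10.4 FPKM (log2 ratio 1.07, or 0.48 centred). COL6A3, a chain of type VI collagen, had a log2 ratio of 1.73, but it was below 1 FPKM in both groups, at 0.901 and 0.272 FPKM, and with a pseudocount of 1 FPKM its ratio of 0.58 did not pass a fold of 2. COL12A1, a fibril-associated chain, was the most abundant of the 4, at 305.8 and 176.4 FPKM, with a log2 ratio of 0.79.

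Of the 11 processing enzymes listed in HMPOS, 11 were higher in extravasated cells, where 67.0% of all listed genes were, but relative to their median 6 were higher and 5 lower. PCOLCE2 alone, 9.09% of the 11, passed a fold of 2, where 20.5% of all listed genes did. With centred ratios none of the 11 did, where 6.14% of all listed genes were higher by as much. PCOLCE2 was at 44.7 FPKM in extravasated cells against 21.2 FPKM in their parental line (log2 ratio 1.07). PCOLCE was far more abundant, at 615.0 and 424.5 FPKM, and ranked 4 by level among the 1189 listed genes in each group. Its log2 ratio of 0.53 was just under the median of all listed genes. BMP1, the proteinase that PCOLCE assists, was at 92.0 and 66.8 FPKM (log2 ratio 0.46) and also fell under that median.

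Each of the 3 lysyl oxidases listed in HMPOS was higher in extravasated cells, where 67.0% of all listed genes were, also relative to their median. The centred log2 ratios were small, at 0.0282 for LOXL2, 0.10 for LOXL1 and 0.28 for LOXL3, so LOXL2 was nearly at that median. LOXL2 was at 183.4 FPKM in extravasated cells against 120.0 FPKM in their parental line (log2 ratio 0.61), LOXL1 at 68.2 and 42.4 FPKM (0.68) and LOXL3 at 19.9 and 11.0 FPKM (0.86). Among the hydroxylases, P3H3 had the highest log2 ratio, 0.94, at 34.3 and 17.9 FPKM, followed by P4HA3 with 0.65, at 33.9 and 21.6 FPKM. PLOD1, at 189.6 and 133.2 FPKM, P4HA2, at 89.0 and 66.0 FPKM, and P3H4, at 180.0 and 134.8 FPKM, were higher by log2 ratios of 0.42 to 0.51, but all 3 turned lower relative to the median of all listed genes.

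**Figure D2:**
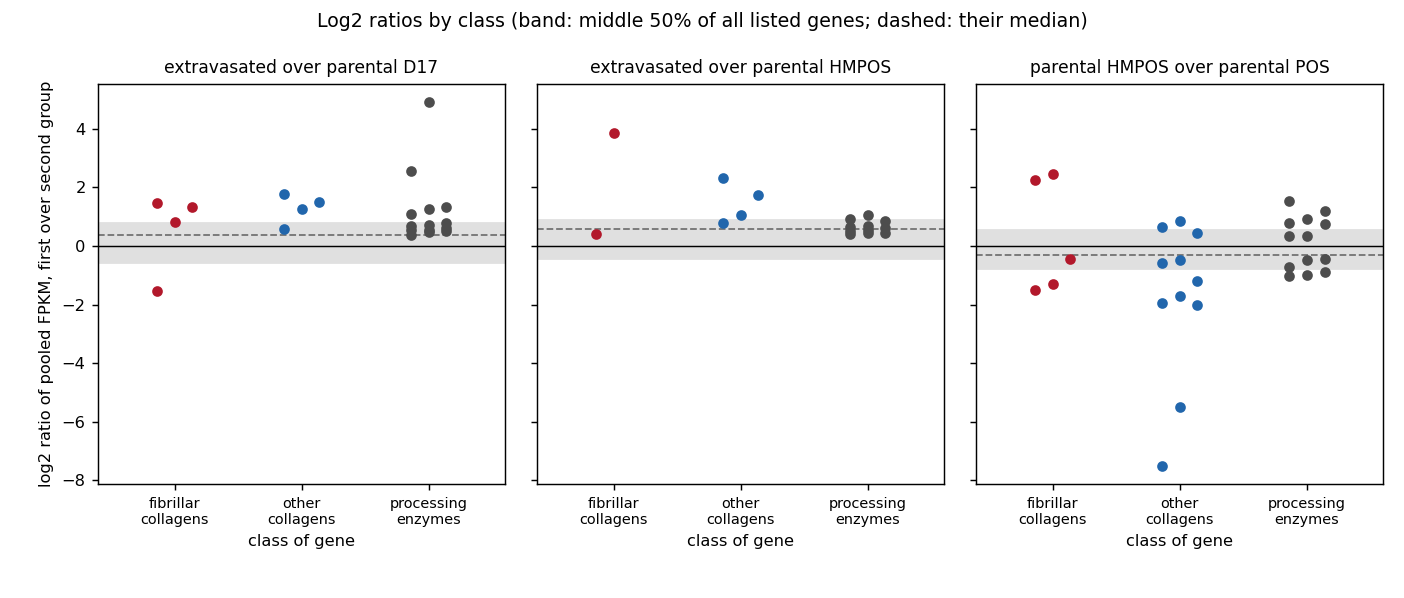
Log2 ratios of pooled FPKM for each member (points) by class of gene in the 3 comparisons, with a gray band for the middle range between the quartiles of all listed genes, a dashed line at their median and a solid line at 0. For D17 (dashed line at 0.39) and HMPOS (dashed line at 0.58) all points but COL3A1 in D17 lie above 0, while 1 more member in D17 and 6 in HMPOS lie below the dashed line; in HMPOS over POS the other collagens reach down to -7.51.

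The tables for D17 and HMPOS have 9 members in common, which is 40.9% of the members listed in D17 and 52.9% of those listed in HMPOS. For all listed genes, 614 symbols were in both tables, or 13.9% of D17 and 51.6% of HMPOS. Of the 9 members, 8 were higher in extravasated cells of both lines and 1, COL3A1, was higher in HMPOS and lower in D17, where 62.2% of the 614 shared symbols were higher in both. Opposite directions were thus found for 11.1% of these members and for 12.9% of the shared symbols. Relative to the medians of all listed genes, 3 of the 8 (PCOLCE2, LOXL3 and LOXL2) were higher in both lines, which is 33.3% of the 9, where 42.3% of the shared symbols were. Of these 3, LOXL2 was nearly at the median in HMPOS, with a centred log2 ratio of 0.0282. The remaining 5, COL1A1, PCOLCE, PLOD1, P4HA2 and P3H4, were then higher in D17 and lower in HMPOS. With COL3A1 that is 66.7% in opposite directions, against 29.3% of the shared symbols. PCOLCE2 was the only one of the 9 that was higher by a fold above 2 in both lines, with log2 ratios of 1.32 in D17 and 1.07 in HMPOS, but with centred ratios, 0.94 and 0.49, it passed in neither. That is 11.1% of the 9, where 13.0% of the shared symbols passed in both, and centred 3.26%. No difference between the lines was tested.

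**Figure D3:**
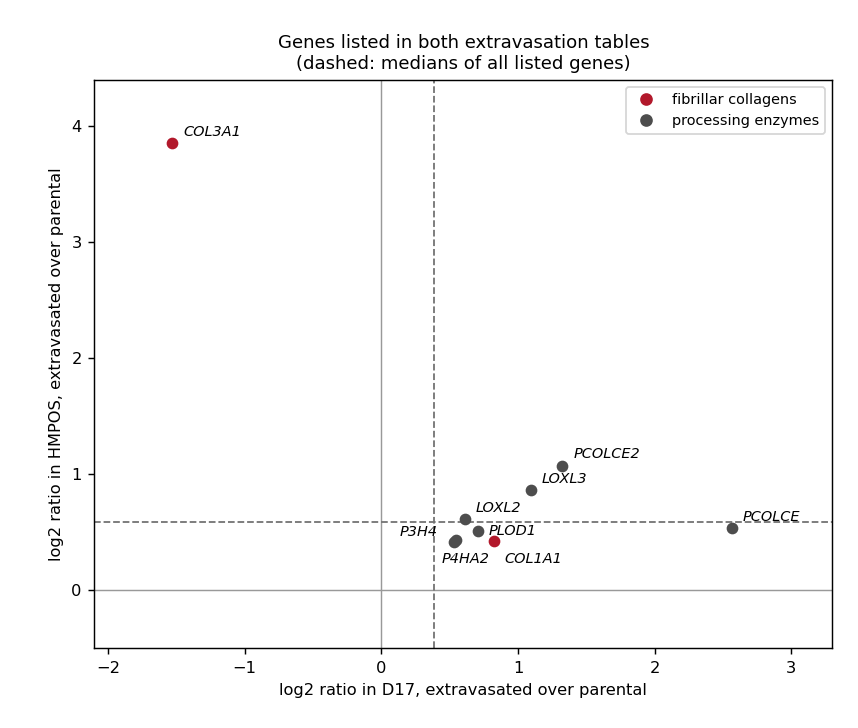
Log2 ratio of extravasated over parental cells in D17 (horizontal) against HMPOS (vertical) for the 9 members listed in both tables, colored by class, with dashed lines at the medians of all listed genes (0.39 and 0.58). COL3A1 is at -1.53 and 3.86, and the other 8 are above 0 on both axes, of which 5 lie below the dashed line for HMPOS.

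Parental HMPOS and parental POS cells were compared to show how the metastatic derivative differs from the line it came from. This comparison shares the parental HMPOS libraries with the extravasation comparison in HMPOS, so the values of these 2 are given side by side and no overlap is counted. Of the members, 3 of 5 fibrillar collagens, 8 of 11 other collagens and 6 of 13 processing enzymes were lower in HMPOS, and no member changed direction relative to the median of all listed genes, which was -0.31. Of 29 members among 5746 listed genes, 12 were higher and 17 lower in HMPOS, where 47.7% of all listed genes were higher and 52.3% lower. With a fold above 2, 4 members were higher and 9 lower, or 13.8% and 31.0% of them, against 8.49% and 19.1% of all listed genes. With centred ratios, 8 were higher and 6 lower by a fold above 2, so this split depended on the scaling, as did that of all listed genes, 1006 higher and 759 lower in place of 488 and 1099.

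Fibrillar collagens differed in both directions between HMPOS and POS, with 2 of 5 higher and 3 lower, where 47.7% and 52.3% of all listed genes were, also relative to their median. COL3A1 was at 56.6 FPKM in HMPOS against 10.2 FPKM in POS (log2 ratio 2.47). COL2A1, the chain of cartilage type II collagen, was low, at 1.52 and 0.321 FPKM (log2 ratio 2.24), and with a pseudocount of 1 FPKM its ratio of 0.93 did not pass a fold of 2. COL1A1 was lower in HMPOS, at 75.9 against 213.2 FPKM, a log2 ratio of -1.49. The type V chains COL5A2 and COL5A1, which form part of type I fibrils, were also lower. COL5A2 was at 511.1 and 1248.7 FPKM (log2 ratio -1.29, or -0.98 centred) and COL5A1 at 236.3 and 317.6 FPKM (log2 ratio -0.43). The level of COL5A2 over that of COL5A1 was 2.16 in HMPOS and 3.93 in POS.

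COL3A1 and COL5A2 are neighbors on canine chromosome 36 of the build CanFam3.1, as named in the submitters' processing notes. The tables place COL3A1 from 30487821 to 30526563 and COL5A2 from 30537638 to 30677658, and do not state whether the first position counts from 0. These genes, 11.1 kb apart, went in opposite directions between HMPOS and POS, and COL5A2 exceeded COL3A1 by a factor of 9.03 in HMPOS and 122.4 in POS. COL5A2 was in neither extravasation table.

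Of 11 other collagens listed for HMPOS over POS, 3 were higher and 8 lower, and 6 of the 8 passed a fold of 2. That is 72.7% lower and 54.5% past the fold, where 52.3% and 19.1% of all listed genes were. Relative to the median of all listed genes the directions were the same, with 1 higher and 5 lower (45.5%) past a fold of 2, where 17.5% and 13.2% of all were. Type VI collagen, which forms beaded filaments around cells, was lower in all 3 chains listed. COL6A3 was at 0.272 FPKM in HMPOS against 49.7 FPKM in POS, for a log2 ratio of -7.51, or -5.32 with a pseudocount of 1 FPKM, that ranked 10 from the bottom among 5718 listed genes with values above 0 in both groups. COL6A1 was at 150.0 and 494.3 FPKM (log2 ratio -1.72) and COL6A2 at 33.3 and 127.9 FPKM (log2 ratio -1.94). The level of COL6A1 over that of COL6A3 was 551.9 in HMPOS and 9.95 in POS, and over that of COL6A2 it was 4.50 and 3.87. COL6A3 thus did not differ in proportion to COL6A1, also with a pseudocount of 1 FPKM (log2 ratios -5.32 and -1.71), whereas COL6A2 nearly did. The size of the quotient with COL6A3 in HMPOS rests on a value below 1 FPKM. COL6A1 and COL6A2 carry the same coordinates, so the quotient of these 2 chains is less certain.

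COL6A1, COL6A2 and COL18A1 carry the same coordinates in the tables, chromosome 31 from 38875633 to 39464510, a span that covers more than 1 gene. How fragments were divided among these 3 genes is not stated, so their values are less certain than those of the other collagens. COL18A1, a multiplexin collagen of basement membranes, was at 9.85 FPKM in HMPOS against 40.0 FPKM in POS (log2 ratio -2.02). COL4A1, a chain of the basement membrane network, was at 0.0771 and 3.45 FPKM (log2 ratio -5.48, or -2.05 with a pseudocount of 1 FPKM and -4.32 with 0.1 FPKM). COL16A1, a fibril-associated chain, was abundant in both, at 255.8 and 578.8 FPKM (log2 ratio -1.18), and relative to the median of all listed genes it no longer passed a fold of 2.

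The 5 other non-fibrillar chains stayed within a fold of 2, except that COL13A1 passed it with centred ratios, at 1.16. COL23A1, at 10.4 FPKM in HMPOS against 15.5 FPKM in POS, and COL7A1, the anchoring fibril chain, at 1.79 and 2.47 FPKM, were lower in HMPOS. COL13A1, at 1.68 and 0.927 FPKM, COL8A2, at 81.1 and 52.2 FPKM, and COL15A1, at 29.4 and 21.6 FPKM, were higher. Side by side with the extravasation comparison, COL13A1 had log2 ratios of 0.85 for HMPOS over POS and 2.31 for extravasated over parental HMPOS cells, and COL6A3 had -7.51 and 1.73.

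Of 13 processing enzymes listed for HMPOS over POS, 7 were higher (53.8%, against 47.7% of all listed genes) and 6 lower, also relative to their median. The 3 lysyl oxidases listed were higher in HMPOS. LOX, the founding member of the family, was at 420.8 FPKM in HMPOS against 242.0 FPKM in POS (log2 ratio 0.80, or 1.10 centred), and LOXL2 was at 119.9 and 95.5 FPKM (log2 ratio 0.33). LOXL4 had a log2 ratio of 1.53, but was below 1 FPKM in both lines, at 0.705 and 0.244 FPKM, and did not pass a fold of 2 with a pseudocount of 1 FPKM, at 0.46.

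The proteins that act on procollagen outside the cell went in different directions between HMPOS and POS, also relative to the median of all listed genes. PCOLCE was at 424.1 FPKM in HMPOS against 832.3 FPKM in POS (log2 ratio -0.97), and BMP1 at 66.8 and 135.7 FPKM (log2 ratio -1.02, or -0.72 centred). PCOLCE2 was higher in HMPOS, at 21.2 and 9.35 FPKM (log2 ratio 1.18). The level of PCOLCE over that of PCOLCE2 was 20.0 in HMPOS and 89.0 in POS. Among 7 hydroxylases and chaperones, 3 were higher and 4 lower, where 47.7% and 52.3% of all listed genes were. None passed a fold of 2, where 8.49% of all listed genes were higher and 19.1% lower by as much. With centred ratios P3H2 (1.22) and PLOD2 (1.07) passed it, where 17.5% of all listed genes were higher by as much. P3H2 had the highest log2 ratio, 0.91, at 12.9 and 6.83 FPKM, and P3H3 the lowest, -0.88, at 17.9 and 33.0 FPKM. PLOD2, which forms hydroxylysines used in cross-links, was at 177.4 and 104.7 FPKM, and P4HA1 at 257.2 and 202.2 FPKM. CRTAP, P3H1 and P4HA2 were lower in HMPOS, with log2 ratios of -0.70, -0.46 and -0.44.

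**Figure D4:**
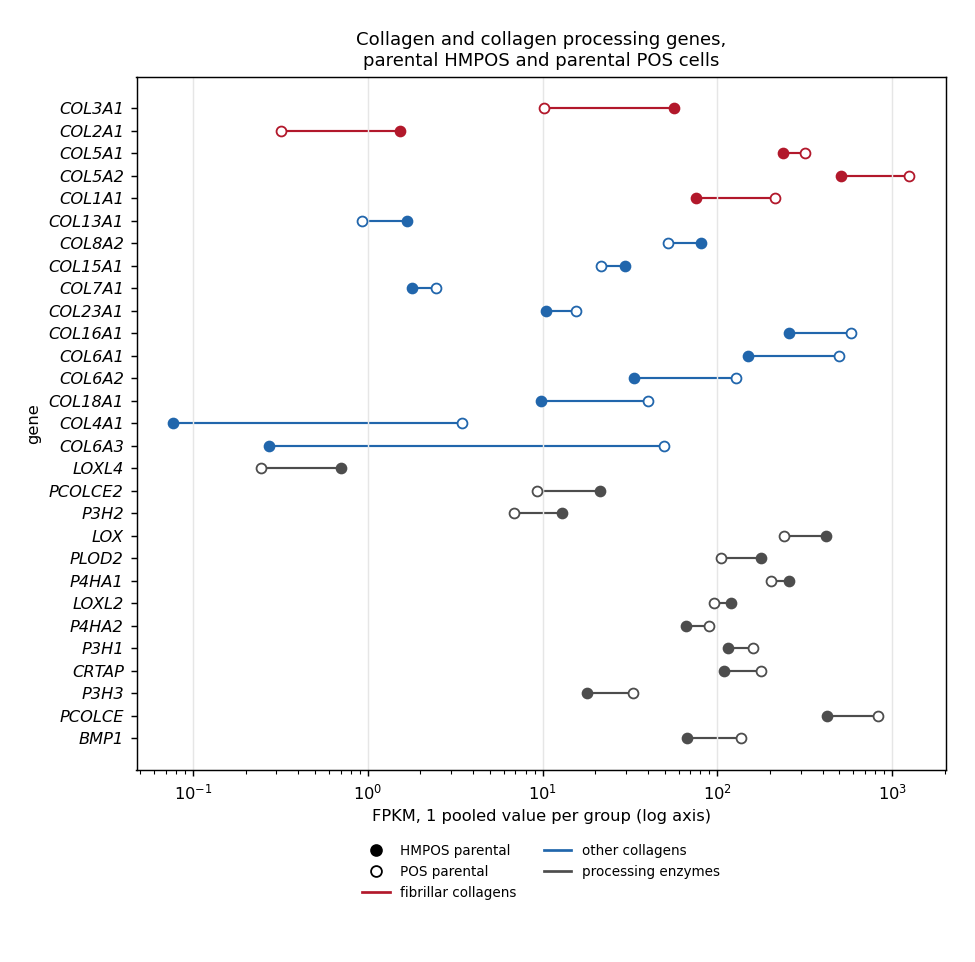
Pooled FPKM on a log axis for the 29 members listed for parental HMPOS (filled points) and parental POS cells (open points), colored by class. HMPOS is lower for 17 members, with the widest gaps for COL6A3 (0.272 against 49.7 FPKM) and COL4A1 (0.0771 against 3.45 FPKM), and higher for 12; no direction flips relative to the median of all listed genes.

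The 6 members listed in all 3 tables were COL1A1, COL3A1, LOXL2, P4HA2, PCOLCE and PCOLCE2. Their levels can be set across 5 groups, with the limit that the tables were normalized separately and that the order of groups has no test. If the names were read the other way, extravasated and parental cells would trade places in each order given for the 6, so that COL1A1 would be lowest in extravasated HMPOS and highest in parental D17 cells. COL3A1 ran from 4.50 FPKM in extravasated D17 cells through 10.2 in POS, 13.0 in parental D17 and 56.7 in parental HMPOS to 821.7 FPKM in extravasated HMPOS cells. COL1A1 was lowest in parental HMPOS cells, at 76.0 FPKM, and highest in extravasated D17 cells, at 397.4 FPKM. The 2 HMPOS groups thus had the most COL3A1 and the least COL1A1.

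By the reading used here, with the same trade of places otherwise, PCOLCE was lowest in parental D17 cells, at 24.3 FPKM, and highest in POS cells, at 832.3 FPKM, with extravasated D17 cells at 143.7 FPKM. PCOLCE2 was lowest in parental D17 cells, at 7.73 FPKM, and highest in extravasated HMPOS cells, at 44.7 FPKM. LOXL2 ran from 54.9 FPKM in parental D17 to 183.4 FPKM in extravasated HMPOS cells. P4HA2 ran from 19.8 FPKM in parental D17 to 89.1 FPKM in POS cells.

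**Figure D5:**
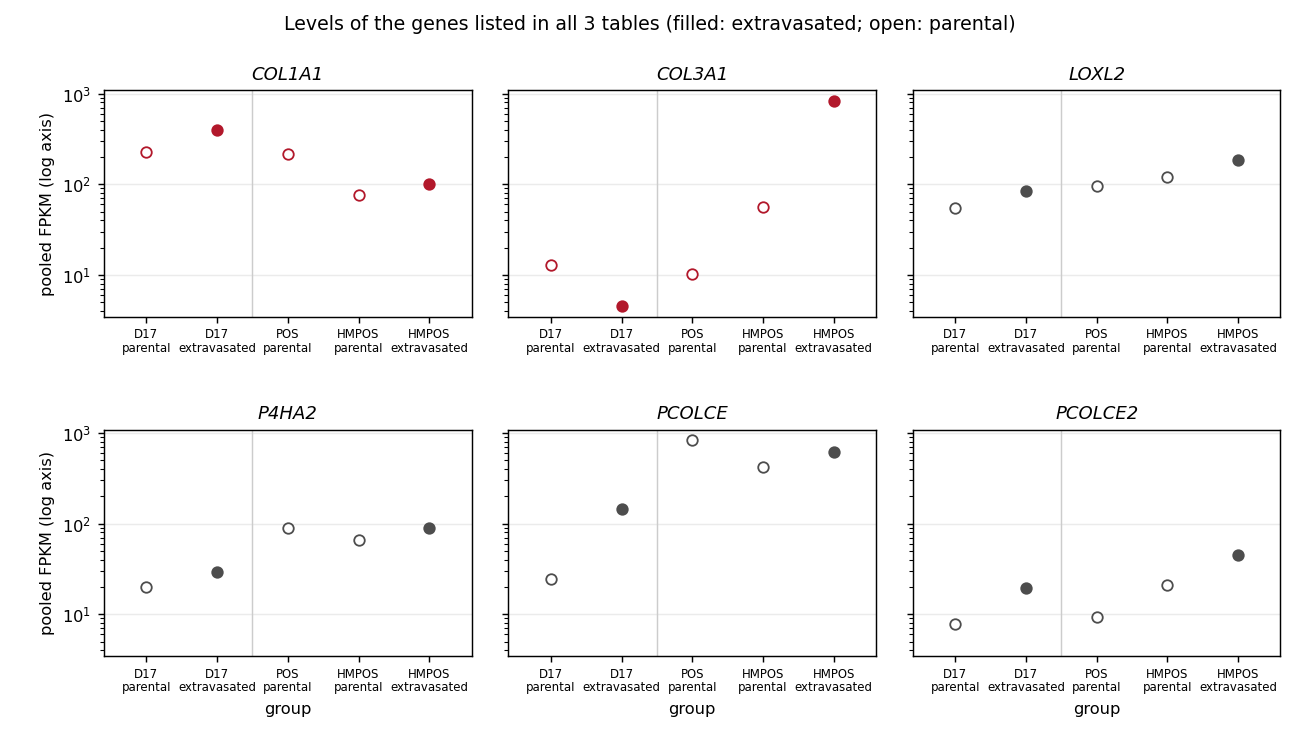
Pooled FPKM on a log axis in each of the 5 groups for the 6 members listed in all 3 tables, with filled points for extravasated and open points for parental cells. COL3A1 spans 4.50 to 821.7 FPKM and COL1A1 76.0 to 397.4 FPKM; levels of D17 and of POS and HMPOS come from tables normalized separately.

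The pattern of COL3A1 over the 3 log2 ratios, -1.53 in D17, 3.86 in HMPOS and 2.47 for HMPOS over POS, was compared with that of 493 other genes listed with values above 0 in all 3 tables. By Euclidean distance, the nearest 5 were CLDN1 (3.37), SULF1 (3.42), ARHGAP6 (3.48), SLC7A5 (3.61) and COTL1 (3.64). These distances are of the order of the ratios themselves, so none of the 5 was close to COL3A1. CLDN1, the nearest, had log2 ratios of -0.60, 1.02 and 0.92. The HMPOS and HMPOS over POS ratios share the parental HMPOS libraries, with opposite sign.

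Other genes of collagen biology were counted from gene lists, beside all listed genes, of which 54.2% (D17) and 67.0% (HMPOS) were higher in extravasated cells. Genes for folding and export were listed for 5 of 19 symbols in D17, 4 in HMPOS and 9 for HMPOS over POS. Of these 9, 5 were higher in parental HMPOS and 4 lower, where 47.7% and 52.3% of all listed genes were. Relative to their median, 6 of the 9 were higher. All 5 listed in D17 were higher in extravasated cells, and 3 of the 5 relative to the median of all listed genes. FKBP7, a prolyl isomerase of the endoplasmic reticulum, was at 33.3 FPKM in extravasated D17 cells against 14.2 FPKM in their parental line, and COLGALT1, which adds galactose to hydroxylysine, was at 23.9 and 11.9 FPKM. These 2 passed a fold of 2, where 18.3% of all listed genes were higher by as much, but with centred ratios 0 did, and with a pseudocount of 1 FPKM FKBP7 alone did. In HMPOS, 3 were higher and 1 lower, none by a fold of 2, and 1 was higher relative to the median. The lower one was MIA3, which serves export of procollagen and was singled out after its values were seen. It was at 28.5 FPKM in extravasated cells against 39.1 FPKM in their parental line. With centred ratios it was lower by a fold above 2 (-1.04), which is 25% of the 4, where 30.4% of all listed genes were.

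Amino-propeptidases and regulators of fibril assembly were listed for 8 of 13 symbols in D17 and 5 in HMPOS, and each was higher in extravasated cells, but relative to the median of all listed genes 1 of the 5 in HMPOS turned lower. ADAMTS2, which removes the amino-terminal propeptide, was at 27.0 FPKM in extravasated D17 cells against 6.70 FPKM in their parental line and at 39.1 and 16.3 FPKM in HMPOS. DCN, the fibril-binding proteoglycan decorin, was at 544.4 and 156.9 FPKM in D17 and at 11.7 and 4.69 FPKM in HMPOS. These 2 genes passed a fold of 2 in both lines, but with centred ratios in D17 alone, since ADAMTS2 was then at 0.68 and DCN at 0.74 in HMPOS. Counts higher by a fold above 2 were 6 for D17 and 2 for HMPOS, or 4 and 0 with centred ratios, against background shares of 18.3% and 20.5%.

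The other fibril regulators past a fold of 2 in the extravasation comparisons were higher in extravasated D17 cells. LUM, which encodes lumican, was at 157.0 and 47.6 FPKM, SPARC, a collagen-binding matricellular protein, at 433.0 and 186.9 FPKM, FBLN5 at 6.34 and 2.43 FPKM and FMOD at 2.27 and 0.507 FPKM, the latter with a log2 ratio of 2.16, or 1.12 with a pseudocount of 1 FPKM. With centred ratios, LUM and FMOD still passed a fold of 2, and SPARC and FBLN5 did not. The FPKM of SPARC in HMPOS was 2896.8 and 1776.7, below a fold of 2. Collagen receptors were listed for 5 of 8 symbols in D17 and 2 in HMPOS, and all were higher in extravasated cells, against background shares of 54.2% and 67.0%, while relative to the median of all listed genes 3 of the 5 and 2 of the 2 were. ITGA10, a collagen-binding integrin chain, passed a fold of 2 in D17, at 8.36 and 3.35 FPKM, but not with centred ratios, at 0.93. That is 20.0% of the 5, close to the 18.3% of all listed genes. Between HMPOS and POS, 6 receptors were listed, with 1 higher in HMPOS and 5 lower, also relative to the median of all listed genes. Of all listed genes, 47.7% were higher and 52.3% lower.

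Proteinases that degrade collagen were higher in extravasated cells of both lines, also relative to the medians of all listed genes, with 4 of 6 symbols listed in D17 and 3 in HMPOS. All of those were higher by a fold above 2, against background shares of 18.3% (D17) and 20.5% (HMPOS), but with centred ratios MMP2 in HMPOS, at 0.61, did not pass, nor did MMP2 in D17 with a pseudocount of 1 FPKM, at 0.65. CTSK, which encodes cathepsin K, was at 439.7 FPKM in extravasated D17 cells against 85.6 FPKM in their parental line and at 48.3 and 13.9 FPKM in HMPOS. The gelatinase gene MMP2 was at 1.15 and 0.372 FPKM in D17 and at 556.0 and 242.9 FPKM in HMPOS. MMP14, a membrane-bound collagenase, was listed in D17 alone of these tables, at 72.5 and 22.3 FPKM. The 3 proteinases listed for HMPOS over POS were all lower in HMPOS, where 52.3% of all listed genes were, also relative to their median.

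Markers of cell types were read from the same tables. Of 7 osteoblast markers, 2 were listed in D17, 3 in HMPOS and 4 for HMPOS over POS, and RUNX2 was in none. SPP1 was at 25.2 FPKM in extravasated D17 cells against 3.71 FPKM in their parental line, and DLX5 at 22.3 and 16.3 FPKM. In HMPOS, ALPL was at 79.2 and 40.9 FPKM, BGLAP at 46.3 and 27.3 FPKM and IBSP at 0.427 and 2.05 FPKM. The summed FPKM of the listed markers was 47.5 in extravasated and 20.0 in parental D17 cells. SPP1 was the most abundant in extravasated and DLX5 in parental D17 cells. In HMPOS the sums were 125.9 and 70.3, with ALPL the most abundant in both groups. Between HMPOS and POS the sum was 145.3 against 826.9. BGLAP made up most of the sum in POS alone, at 676.3 FPKM, against 27.3 FPKM in HMPOS. SP7 was at 54.5 and 41.7 FPKM, DLX5 at 61.8 and 95.2 FPKM and SPP1 at 1.73 and 13.8 FPKM. Osteoblast markers thus differed in the same comparisons as the collagens. Both listed in D17 were higher, in HMPOS 2 were higher and 1 lower, and for HMPOS over POS 1 was higher and 3 lower. Of all listed genes, 54.2%, 67.0% and 47.7% were higher. These directions held with centred ratios, but DLX5 in D17, at 0.07, and BGLAP in HMPOS, at 0.18, were then close to the median. The part of these markers in the collagen differences was not tested.

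Of 5 epithelial markers, CDH1 and EPCAM were listed in D17, at 1.47 and 1.72 FPKM in extravasated and 0.0783 and 0.431 FPKM in parental cells, sums of 3.19 and 0.510 with EPCAM the most abundant. CDH1 alone was listed in HMPOS, at 3.04 and 1.49 FPKM, and for HMPOS over POS, at 1.49 and 4.30 FPKM. Of 5 endothelial markers, KDR was listed for HMPOS over POS, at 0.146 and 1.73 FPKM, and 0 were listed in D17 or HMPOS. Of 5 leukocyte markers, 0 were in any table. No listed marker had a value of 0, and the part of these genes in the collagen differences was not tested. Since unlisted genes have no value here, the tables do not show whether cells of other types were present.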

How the data were processed

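Per the labels, mRNA of 15 libraries was sequenced. The submitters' processing notes name Trimmomatic 0.38, TopHat2, Cufflinks and Cuffdiff on CanFam3.1, whereas the article's methods name STAR, voom and limma; the files have Cuffdiff columns. The authors deposited FPKM values, 1 for each group, in 3 tables that hold only genes marked significant. Their log2 ratio (second over first group), test statistic, p-value and q-value columns were not used. Unused columns of single samples numbered 0.

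Ratios of first over second group were computed from the deposited FPKM without a pseudocount, using Python 3.11.15, numpy 2.4.6, pandas 2.3.3 and matplotlib 3.10.9. Genes with a 0 (8, 3 and 28 in D17, HMPOS and HMPOS over POS; no member) were counted but not ranked. All listed genes were counted by gene identifier because some symbols had become dates; overlaps used symbols. Counting was tested on simulated data.

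Members and lists were chosen with earlier results of these data known. The named genes were members with a fold above 2 in any table, fibrillar collagens, members in both extravasation tables, COL3A1, PCOLCE and LOXL3; pathway genes with a fold above 2 in either extravasation table; listed markers; and the 5 genes nearest to COL3A1. Other members and MIA3 were named after their values were seen. Alternatives were pseudocounts of 1 and 0.1 FPKM, centring, a minimum of 1 FPKM, and folds above 1.5 or of any size. Centring and a pseudocount of 1 FPKM for the pathway lists were chosen after seeing the data.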

Additional observations from a re-analysis of the deposited data

Results flagged for a closer look

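In HMPOS, COL3A1 was higher in extravasated cells (821.7 FPKM, against 56.7 FPKM in the parental line), while in D17 it was lower (4.50 FPKM, against 13.0 FPKM). Its log2 ratios of 3.86 and -1.53 differ by 5.39. It was noted because the same comparison gave opposite directions in the 2 lines, as it did for 12.9% of the 614 shared symbols, and the directions hold relative to the medians of all listed genes, at 3.27 and -1.92. Each ratio rests on 1 pooled value per group, and the difference between the lines was not tested.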

How the results depend on the processing

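No paired analysis was possible because each group has 1 pooled value in a table, and no library could be left out for the same reason. Centring on the median of all listed genes turned the log2 ratio of PLOD2 in D17 to -0.0076 and, in HMPOS, those of BMP1 to -0.12, COL1A1 to -0.16, P3H4 to -0.17, P4HA2 to -0.15, PCOLCE to -0.0491 and PLOD1 to -0.0741. It changed the members higher by a fold above 2 to 5 in D17, 3 in HMPOS and 8 for HMPOS over POS. Medians of fibrillar collagens, other collagens and processing enzymes became 0.69, 1.00 and 0.32 in D17, 1.56, 0.81 and 0.0282 in HMPOS, and -0.12, -0.87 and 0.63 for HMPOS over POS. The alternatives for the pathway lists were chosen after seeing the data. A pseudocount of 1 FPKM left 1 gene of folding and export higher by a fold above 2 in D17. Centring left 0 genes higher by that fold for folding and export and 0 for receptors in D17, and 0 for fibril regulators in HMPOS. In HMPOS it also made 1 gene of folding and export lower by that fold, where 30.4% of all listed genes then were.

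With any fold, 21 members were higher in D17, 17 in HMPOS and 12 for HMPOS over POS, where 17 were lower. With a fold above 1.5, 15 were higher and 1 lower in D17, 11 and 0 in HMPOS, and 9 and 12 for HMPOS over POS. Shares of all listed genes were not computed at that fold or with a pseudocount, so counts at these settings have no background beside them. A pseudocount of 1 FPKM left 2 higher for HMPOS over POS, and gave medians of 0.92 for other collagens and 0.65 for processing enzymes in D17 and 2.13 for fibrillar and 0.90 for other collagens in HMPOS. With a pseudocount of 0.1 FPKM, other collagens had medians of 1.32 in D17 and 1.24 in HMPOS. A minimum of 1 FPKM, which drops COL6A3, gave a median of 1.07 for other collagens in HMPOS. For HMPOS over POS it drops LOXL4 and turned the median of processing enzymes from 0.33 to -0.0533, between equal numbers of higher and lower genes. Depth is unknown, so values below 1 FPKM, as of COL6A3, COL4A1, COL2A1 and LOXL4, have unknown counting error.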

Other observations

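Genes of collagen turnover that are not members also differed between the parental lines. MMP13, a collagenase, was at 6.54 FPKM in parental HMPOS against 1285.7 FPKM in parental POS cells, for a log2 ratio of -7.62. CTSK was at 13.9 FPKM against 528.7 FPKM, for a log2 ratio of -5.25. In the extravasated sub-lines MMP13 was at 54.1 FPKM for HMPOS and 18.1 FPKM for D17, where the parental lines had 6.55 and 3.80 FPKM. The comparisons in HMPOS and with POS share the parental HMPOS libraries, and no test across them was made.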
